A study of Mus musculus with 47 samples.

Results

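Ribosome biogenesis and MYC target genes were followed across mouse T-cell lymphoblastic tumours. The set was defined by name: 34 genes whose products transcribe ribosomal RNA, modify and cut it, assemble the 2 subunits, or supply nucleotides, polyamines and initiation factors for growth. A probe set with 1 gene symbol was found on the array for 32 of the 34, out of 12393 genes with such a probe set, and all 32 were bright enough to be tested among 8814 tested genes. *Dkc1* was not matched to a probe set and the probe set of *Mrto4* also carries the symbols of 2 of its pseudogenes, so neither was measured here.

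A ribosome is built in the nucleolus. RNA polymerase I copies the ribosomal genes into a long precursor RNA, small nucleolar ribonucleoproteins (snoRNPs) guide its chemical modification, and assembly factors fold and cut it into the RNAs of the small and large subunits. MYC, a transcription factor that binds DNA with its partner MAX, at sites such as the E-box CACGTG, is known to raise many of these genes together, and thymocytes and T-cell leukaemias often show high *Myc* downstream of NOTCH1 signalling.

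The data were single-colour Affymetrix signals from 47 tumours, 1 array each, in arbitrary units. The groups were named for the lesion the mice carried. There were 6 tumours of TLX1 transgenic mice and 9 of Cdkn2a knockout mice that had also undergone retroviral insertional mutagenesis. Tumours numbered 3 in each of 8 groups: Ikaros Plastic, p53 knockout, beta-catenin transgenic, LMO1 transgenic, ThPOK transgenic, Nup98HoxD13 transgenic, and the double transgenics olig1-LMO1 and Tal1-LMO2. They numbered 2 in each of 4 groups: Pokemon transgenic, Tal1 transgenic, rag E2A knockout and E2A knockout. Every tumour is described as T-cell lymphoblasts, and no normal thymus was among the samples used here. The TLX1 transgenic tumours were labelled TLX1 positive and the other 41 TLX1 negative, so TLX1 status and that background cannot be told apart. The sources used here name no transgene promoter, strain or age. Whether the tumours came from separate mice is not stated in the labels, so p-values measure only the spread between these samples. Array medians lay between 49.5 and 106 signal units and differed among backgrounds. They were 53.2 and 61.4 in Tal1, 58.5, 56.4 and 49.5 in Tal1-LMO2, and 54.6 and 58.5 in E2A knockout tumours. In Ikaros Plastic tumours they were 94.2, 106 and 95.9, and in beta-catenin tumours 84.5, 84 and 93.7. Their part in differences between backgrounds was not tested beyond the quantile normalization fits given below.

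Several tumours stood apart. TLX1 tumours 2, 5 and 6 had mean log2 3'/5' signal ratios of the *Gapdh* and *Actb* control probe sets of 2.79, 2.55 and 1.94, whereas the other 44 tumours lay between -0.17 and 0.97. TLX1 tumours 1, 3 and 4 stood at 0.52, 0.9 and 0.37, above the TLX1 negative median of -0.03. Leaving out tumours 2, 5 and 6, or fitting the ratio as a covariate, therefore cannot fully part the ratio from TLX1 status. The 4 measured T-cell markers *Cd3d*, *Cd3e*, *Cd3g* and *Thy1* averaged -4.03 on the centred log2 scale in p53 knockout tumour 2 and between -1.30 and 1.31 in the other 46. *Cd3d* had a signal of 62.4 there, against a median of 3480 over the series. The 5 endothelial genes averaged 4.87 in that tumour and at most 0.99 elsewhere. The 8 macrophage and neutrophil genes averaged 4.74 in TLX1 tumour 2 and 2.29 in TLX1 tumour 5, against -1.26 to 1.62 in the TLX1 negative tumours. *Lmo1* signals were 522 to 2340 in the LMO1 tumours and 586 to 2530 in those labelled Nup98HoxD13, but 11.1 to 34.3 in those labelled olig1-LMO1, which goes against the last of these labels. Whether these labels are exchanged could not be settled, so results given here for either group may belong to the other. In these bulk samples fewer cells of a type and less RNA per cell cannot be told apart.

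Promoter sequences were examined because the E-box is the textbook MYC site. RefSeq windows on GRCm38.p6, from 250 bases before to 50 after each annotated start, were found for 28 of the 34 members. The letters CACGTG, which read the same on both strands, lay in the windows of 6 of the 28 (21.4%) and in those of 8.09% of 27025 genes. The 6 were *Eif4a1*, *Eif4e*, *Nme1*, *Nop2*, *Pes1* and *Wdr43*. For 4 of them the stretches around the motif are printed 5' to 3' on the gene's strand with the E-box in capitals. These 4 were chosen for the lowest p among the 6 for the slope on *Myc* within backgrounds, described below.
Eif4a1, chr11:69672567-69672652, minus strand, motif at -189 from the start: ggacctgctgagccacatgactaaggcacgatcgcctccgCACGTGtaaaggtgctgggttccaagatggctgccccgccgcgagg
Nme1, chr11:93968273-93968330, minus strand, motif at -18 from the outer start: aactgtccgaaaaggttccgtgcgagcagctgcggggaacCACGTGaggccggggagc
Nme1, chr11:93968039-93968064, minus strand, motif at -29 from an inner start: cttgatacgcCACGTGggctcgcctt
Eif4e, chr3:138527030-138527055, plus strand, motif at -228 from an inner start: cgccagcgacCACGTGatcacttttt
Eif4e, chr3:138527194-138527219, plus strand, motif at -64 from the same start: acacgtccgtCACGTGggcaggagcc
Wdr43, chr17:71616222-71616247, plus strand, motif at 18 within the transcript: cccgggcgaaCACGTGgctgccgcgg
A match says only that the letters are present. No binding of MYC was measured, and the windows without a match say nothing about the other members.

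*Myc*, the regulator the set is named for, was measured by 1 probe set. Its signals in TLX1 tumours 1 to 6 were 647, 213, 930, 452, 185 and 364. In the 9 Cdkn2a knockout tumours they were 1550 at the lowest, 2080 at the median and 3120 at the highest. The TLX1 negative tumours as a whole ran from 316 to 3120 with a median of 1260. The lowest 2 values of the series thus belonged to TLX1 tumours 5 and 2, and the highest 7 to Cdkn2a knockout tumours. Signals in the 3 p53 knockout tumours were 316, 483 and 830, in the ThPOK tumours 748, 681 and 728, in the Tal1 tumours 657 and 628, and in the beta-catenin tumours 1870, 1700 and 1220. In the remaining 8 backgrounds they ranged from 599, in Ikaros Plastic tumour 2, to 1760, in Ikaros Plastic tumour 3. Against the unweighted mean of the other 13 backgrounds, *Myc* was higher in Cdkn2a knockout tumours by 1.24 ± 0.19 log2 (SE, adjusted p = 5.73e-06, limma) and lower in p53 knockout tumours by 1.03 ± 0.30 (log2 difference -1.03, adjusted p = 0.0128). The TLX1 difference was -1.54 ± 0.31 (adjusted p = 0.00042) with all 6 tumours, -0.86 without tumours 2, 5 and 6 (adjusted p = 0.266), and -0.03 with the 3'/5' ratio as covariate (adjusted p = 0.995). The paralogues *Mycn* and *Mycl* were near the floor: none of their 6 probe sets exceeded the array median in more than 1 array.

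The mean of the 32 members, each centred on its own average, summarises the set per tumour. It was 0.18, -0.62, -0.12, -0.64, -0.37 and -0.07 in TLX1 tumours 1 to 6, with a group mean of -0.27 ± 0.33 (SD, n = 6). In the Cdkn2a knockout tumours it ran from -0.31 to 0.46 with a median of 0.29 (mean 0.17 ± 0.27, SD, n = 9). The p53 knockout tumours gave -0.11, -0.84 and 0.09, and the Ikaros Plastic tumours 0.08, -0.63 and -0.12. In each of the last 2 backgrounds tumour 2 lay far below the others, and in p53 knockout it is the tumour with little *Cd3d*, *Cd3e* and *Cd3g* signal. Every other background had a mean between -0.13 (LMO1, SD 0.09, n = 3) and 0.16, and in the order of the means the tumours of each background overlapped those of the next. Background accounted for 39.1% of the variance of the member mean and 76% of the variance of *Myc*. For single members the share ran from 23% (*Gar1*) to 82.3% (*Ddx21*) with a median of 45.9%, beside a median of 53% over all tested genes. No share is adjusted for fitting 14 means to 47 tumours, which by itself takes up part of the variance. The F test among backgrounds did not call *Gar1* (adjusted p = 0.696, limma).

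**Figure D1:**
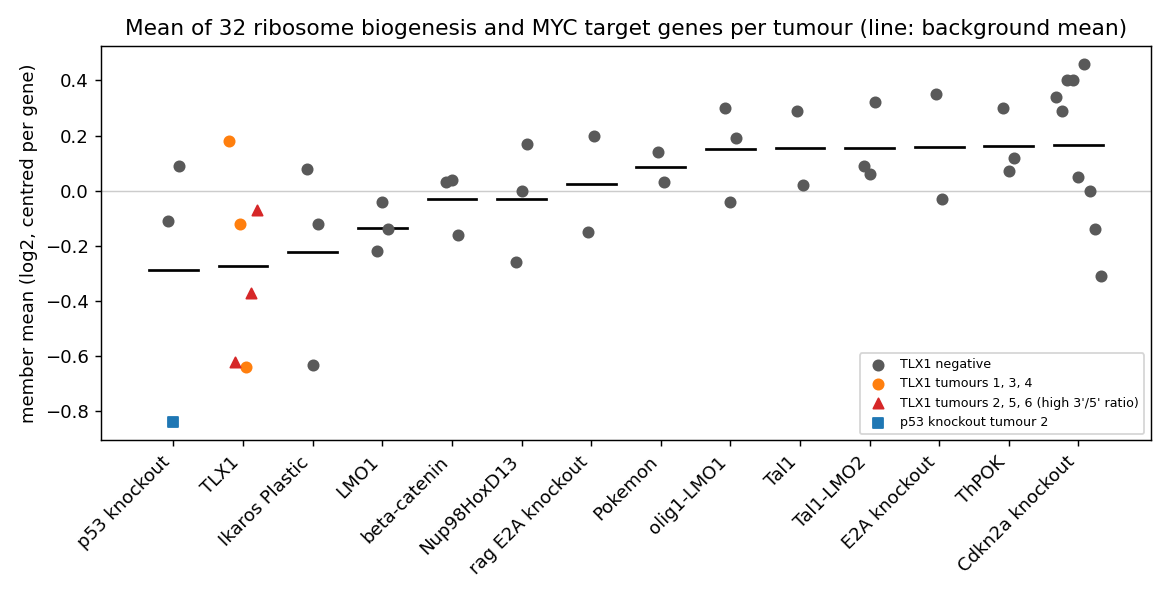
Member mean per tumour (log2, each gene centred on its average over 47 tumours) for the 14 backgrounds ordered by group mean; horizontal lines are group means. TLX1 tumours 2, 5 and 6 are triangles and p53 knockout tumour 2 is a square. The tumours of most backgrounds overlap, and 4 tumours lie below -0.6.

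Members moved together from tumour to tumour. Of the 496 pairs of members, 483 correlated positively over the 47 tumours, with a median r of 0.42, and the median was 0.54 once background means were removed. These are descriptions of tumours that share arrays and scaling. Pairs of other genes were not measured, so whether this is particular to the set was not tested. *Nolc1*, a nucleolar chaperone of snoRNPs, followed the rest of the set most closely (r = 0.89 with the mean of the others), then *Rrp9*, a protein of the U3 snoRNP (0.83). *Rrp12* (0.29), *Nme2* (0.33) and *Odc1* (0.36) followed it least. The closest pairs were *Nop56* with *Ebna1bp2* (0.84), *Nop56* with *Nhp2* (0.82) and *Nolc1* with *Rrp9* (0.81). The pair at the other end was *Rrp12* with *Eif4e* (-0.25).

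The first comparison set the 6 TLX1 positive tumours against the 41 negative ones. Of the 32 members, 10 were lower and 1 was higher at an adjusted p under 0.05 (limma), where 8.86% of all tested genes were lower and 12.6% higher. The median member difference was -0.24 log2, beside 0.07 over all tested genes. None of the calls held without TLX1 tumours 2, 5 and 6 (0 lower and 0 higher, with 0.397% and 1.12% of all genes called), with the 3'/5' ratio as covariate (0 and 0, with 0% and 0.0681%), or with background as a random block (0 and 0, with 0.0113% each). Under the random block the differences themselves moved by at most 0.08 log2, with *Nme1* at -1.71, *Eif4a1* at -1.37 and *Npm1* at -0.53, and their adjusted p ran from 0.153 to 0.603. With the 3 tumours of high ratio as the only TLX1 tumours, 8 were lower, beside 8.18% of all genes. Leaving out tumour 2, 4 or 5 singly left 4, 5 and 5 lower, beside 5.81%, 7.53% and 5.96% of all genes. Of the 8 macrophage and neutrophil genes 4 were higher and 0 lower in TLX1 tumours. The mean of the 5 stromal genes had a median of 1.48 in the TLX1 tumours (-0.78 to 1.74, with tumours 2 to 5 between 1.45 and 1.74) and of 0.18 in the negative tumours (-3.49 to 2.70), with 0 of 5 genes called by limma. The mean of the 5 endothelial genes had medians of 0.48 and -0.07, with 1 of 5 genes higher. The part of the 3'/5' ratio and of these cell type markers in the TLX1 differences was not tested.

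Among genes of RNA polymerase I, *Polr1b*, the second largest subunit, was lower in TLX1 tumours. Its signals in TLX1 tumours 1 to 6 were 284, 94.5, 196, 67.4, 99.8 and 181, against 76.1, 276 and 502 for the lowest, median and highest TLX1 negative tumour. Tumours 2, 4 and 5 were low, tumour 1 lay above the negative median, and the groups overlapped, as they did for each of the 32 members. The difference was -0.84 ± 0.24 (adjusted p = 0.00868), and -0.66 without tumours 2, 5 and 6 (adjusted p = 0.285). *Polr1a*, the largest subunit, stood at -0.35 ± 0.17 (adjusted p = 0.141).

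The snoRNP proteins did not pass the test. In the box C/D particle, which guides ribose methylation, *Nop56* had TLX1 signals of 2000, 1520, 1480, 1420, 1830 and 2120 against a negative range of 576 to 2200 and a median of 1420. Its difference was 0.34 ± 0.18 (adjusted p = 0.186), and a second probe set gave -0.31. The methyltransferase *Fbl* (-0.01) and the scaffold *Nop58* (-0.31) were not called either, though a second *Fbl* probe set gave -0.48 (adjusted p = 0.0141). In the box H/ACA particle, which guides pseudouridylation, *Nop10* signals were 2980, 2530, 2710, 2800, 3150 and 3840 against 1790 to 6740 with a median of 3440, a difference of -0.16 ± 0.16 (adjusted p = 0.481). A second *Nop10* probe set gave -0.79 (adjusted p = 0.00151). *Nhp2* (0.08) and *Gar1* (-0.12) were close to 0.

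Of the 4 nucleolar scaffold and helicase genes, 2 were lower. *Npm1*, an abundant nucleolar chaperone, had TLX1 signals of 4690, 2880, 4200, 2310, 5500 and 4600, against a negative range of 2510 to 9050 and a median of 5680. All 6 lay below that median, tumours 2 and 4 furthest. The difference was -0.51 ± 0.17 (adjusted p = 0.0267), and it was -0.63 without tumours 2, 5 and 6 and -0.60 with the ratio covariate, neither past the threshold (adjusted p = 0.145 and 0.558). *Ddx21*, an RNA helicase, stood at -0.56 ± 0.19 (adjusted p = 0.0298), but at 0.12 with the ratio covariate. *Nolc1* (-0.32) and nucleolin, *Ncl* (0.06), were not called. The 4 *Ncl* probe sets disagreed, with differences of 0.06, -0.11, 0.40 and -1.65, the last past the threshold (adjusted p = 1.48e-06, limma). Those of *Nolc1* gave -0.32, 0.45 and -1.23, again with the last past it (adjusted p = 7.64e-05).

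For large subunit assembly, the PeBoW complex had no called member: *Pes1* stood at -0.07, *Bop1* at -0.13 and *Wdr12* at -0.15. *Bop1* signals in TLX1 tumours 1 to 6 were 892, 632, 745, 256, 678 and 612 against 367 to 1000 with a median of 646 in the negative tumours, so tumour 4 alone was low, and the difference was 0.11 without it. Of the 7 other large subunit factors, *Rrs1*, needed for 5S particle incorporation, was lower. Its TLX1 signals were 830, 461, 575, 305, 395 and 640 against 337 to 1340 with a median of 876, all 6 below that median, and its difference was -0.64 ± 0.20 (adjusted p = 0.0182). The others were not called and ran from -0.30 (*Nop16*) through *Nip7* (-0.21), the ribosomal RNA methyltransferase *Nop2* (-0.18), *Gnl3* (-0.09) and *Ebna1bp2* (-0.01) to *Ppan* (0.23). A second *Nip7* probe set gave 0.50 (adjusted p = 0.0199).

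In small subunit processing the members split. *Wdr43*, a subunit of the processome, had TLX1 signals of 754, 461, 639, 471, 440 and 495 against 482 to 1240 with a median of 761. All 6 lay below that median and 3 of them below every negative tumour. The difference was -0.45 ± 0.14 (adjusted p = 0.0131), and 0 with the ratio covariate. *Rrp9* was lower too, by -0.77 ± 0.24 (adjusted p = 0.0193), with signals of 311, 57.7, 209, 74.1, 120 and 240. *Rrp12*, an export and maturation factor, was the 1 higher member, at 206, 129, 182, 213, 167 and 163 against 44 to 185 with a median of 112. Its difference was 0.59 ± 0.18 (adjusted p = 0.0149), 0.78 without tumours 2, 5 and 6 (adjusted p = 0.0938) and 0.70 with the ratio covariate (adjusted p = 0.498). *Rrp12* is the dimmest of these members, with a negative median not far above the array medians.

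The largest TLX1 differences belonged to supply and translation genes. *Nme1*, a nucleoside diphosphate kinase, had TLX1 signals of 1300, 532, 876, 1230, 689 and 811, against 633, 3100 and 5160 for the lowest, median and highest negative tumour. Its difference was -1.71 ± 0.29 (adjusted p = 5e-05), -1.35 without tumours 2, 5 and 6 (adjusted p = 0.0628). A second probe set gave 0.32 and hardly followed the first (r = 0.12), and *Nme1* and *Nme2* are near-identical paralogues whose probes may not separate them, so the *Nme1* value is uncertain. *Cad*, the enzyme that starts pyrimidine synthesis, was lower by -0.51 ± 0.17 (adjusted p = 0.0236), with TLX1 signals of 915, 210, 496, 471, 446 and 563 against 292 to 1120, but its other probe set gave -0.01 and the ratio covariate 0.14. The polyamine enzymes *Odc1* (-0.41, adjusted p = 0.103) and *Srm* (-0.28), and *Nme2* (-0.16), were not called. Further *Odc1* probe sets gave -0.62 (adjusted p = 0.00725, limma) and -0.21 (adjusted p = 0.455).

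*Eif4a1*, the helicase of the cap-binding complex, had TLX1 signals of 1770, 804, 2170, 2980, 833 and 1350 against 1190, 4120 and 6820 in the negative tumours. All 6 lay below that median, with tumours 2, 5 and 6 the lowest of the group. The difference was -1.40 ± 0.25 (adjusted p = 8.75e-05), -0.80 without those 3 tumours (adjusted p = 0.175) and -0.19 with the ratio covariate (adjusted p = 0.928). Its 3 probe sets gave -1.40, -2.71 and -0.18. *Eif4e*, the cap-binding protein, was lower by -0.69 ± 0.14 (adjusted p = 0.000305), with 607 to 1470 against 718 to 1860, while its other probe sets gave -0.16 and 0.02. Over all members, 26 further probe sets of 19 genes could be set beside the ones used, and 9 of them had the opposite sign for TLX1 status.

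**Figure D2:**
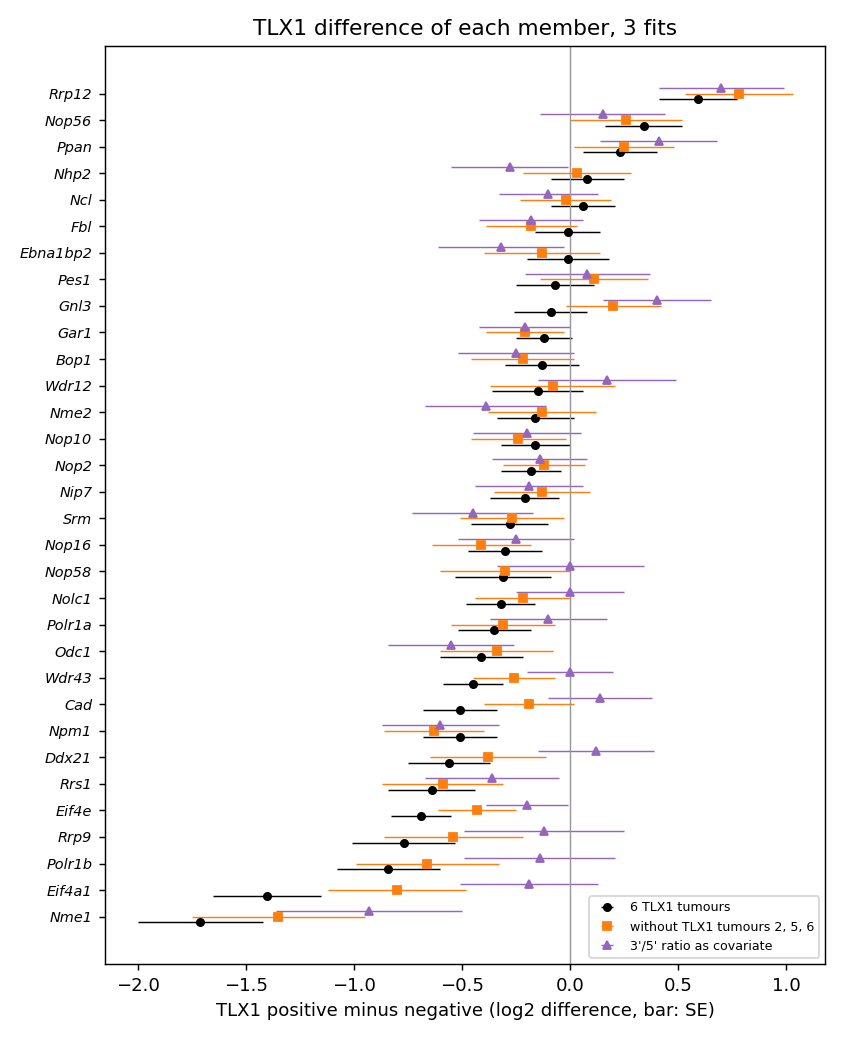
Log2 difference (TLX1 positive minus negative, horizontal axis; bars are SE) for each of the 32 members in 3 fits: all 6 TLX1 tumours (circles), without TLX1 tumours 2, 5 and 6 (squares), and with the 3'/5' ratio as covariate (triangles). Most low values on the left move toward 0 under the covariate, from -1.40 to -0.19 for *Eif4a1*, whereas *Npm1* goes from -0.51 to -0.60. With the covariate 0 members are called.

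The second comparison set each background against the unweighted mean of the other 13. These contrasts share 1 fit and overlapping samples, so each is given on its own. Over the 14 backgrounds, 17 of the pairs of a member and a background were higher and 26 lower, beside 6.39% and 5.08% of all such pairs of tested genes. In TLX1 tumours 10 members were lower and 1 higher in this contrast too, beside 12.5% and 19% of all genes. Any difference among the 14 means was called for 16 of 32 members (limma F test), where 68.1% of all tested genes were called. The largest spans between the highest and lowest background were 2.45 log2 for *Nme1*, 2.01 for *Eif4a1*, and 1.63 for both *Ddx21* and *Nme2*. The 5 members with the flattest profiles by p were *Gar1*, *Nolc1*, *Nop2*, *Srm* and *Pes1*, with adjusted p between 0.450 and 0.696.

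Cdkn2a knockout tumours, which had the highest *Myc*, had 6 members higher and 0 lower, with 16.1% of all genes higher and 14.6% lower. The share of members that were higher was thus close to that of all genes, so the number of higher calls does not set the members apart. Whether the absence of lower members does so was not tested. *Ddx21* signals in them ran from 880 through a median of 961 to 1270, a difference of 0.65 ± 0.09 (adjusted p = 2.24e-06), and each of 9 tumours lay above the TLX1 negative median of 730. *Polr1b* ran from 282 to 502, a difference of 0.75 ± 0.17 (adjusted p = 0.00102). *Bop1* (0.43), *Ppan* (0.39), *Wdr43* (0.35) and *Eif4a1* (0.48) were the other 4. All 6 kept their sign without any 1 of the 9 tumours, and *Ppan* alone lost its call in 1 of those fits. The mean log2 3'/5' ratios of these tumours lay between -0.15 and 0.04, and with the ratio as a covariate *Polr1b* stood at 0.67 and *Ddx21* at 0.61, both still called. *Eif4a1* stood at 0.26 in that fit, still called (adjusted p = 0.0323). Of the 4 measured T-cell markers 2 were lower and 0 higher in these tumours, and their mean ran from -1.30 to 0.04 with a median of -0.70, against a median of 0.15 over the TLX1 negative tumours. It was between -1.30 and -0.70 in tumours 1, 2, 3, 4 and 6, which had the 5 highest member means of the background, and between -0.14 and 0.04 in the other 4. The part of the T-cell markers in these differences was not tested. The box C/D and H/ACA proteins had no called member here.

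p53 knockout tumours had 9 members lower and 0 higher, with 9.34% and 12.4% of all genes called. *Ddx21* signals were 368, 216 and 360, lower than in every other background by mean, with a difference of -1.10 ± 0.15 (adjusted p = 4.35e-06). *Rrp9* was at 219, 28.9 and 265 (-0.93 ± 0.34), *Nop58* at 667, 184 and 663 (-0.81) and *Wdr12* at 317, 113 and 496 (-0.67), low mainly in tumour 2. *Polr1a* (-0.57), *Nop10* (-0.57), *Npm1* (-0.59), *Rrs1* (-0.83) and *Eif4a1* (-0.87) made up the rest. The mean log2 3'/5' ratios of tumours 1 to 3 were 0.97, 0.65 and 0.07. Without tumour 2 only *Ddx21* remained called (-0.87 ± 0.17, adjusted p = 0.00148), where 2.62% of all genes were lower. *Rrp9* then stood at -0.09 and *Wdr12* at -0.11.

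In Ikaros Plastic tumours 5 members were lower and 0 higher, beside 7.85% and 15% of all genes: *Nhp2* (-0.77), *Ncl* (-0.59), *Nop10* (-0.53), *Npm1* (-0.53) and *Nme2* (-0.48). *Nhp2* signals were 1670, 914 and 1220. Without tumour 2 only 2 were lower, beside 2.13% of all genes, and without tumour 3 only 3, beside 6.34%. *Nhp2* kept its call after quantile normalization, whereas *Ncl* (-0.15), *Nop10* (-0.14), *Nme2* (0) and *Npm1* (0.04) did not, and with another probe set *Ncl* stood at 0.07.

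Tal1 transgenic tumours had the highest signals of *Nme2*, 12600 and 10600 against 3130 to 9070 elsewhere among TLX1 negative tumours, a difference of 1.24 ± 0.16 (adjusted p = 3.44e-06). *Nop10* was higher there as well, at 5810 and 5570 (0.82 ± 0.15), and these were the only 2 of 32 members called, with 3.1% of all genes higher and 1.86% lower. Neither call held after quantile normalization (0.45 and 0.32, adjusted p = 0.0678 and 0.308), and *Nop10* was not called without Tal1 tumour 1 (0.78, adjusted p = 0.0524). The same 2 genes were higher in E2A knockout tumours (*Nop10* 0.65, *Nme2* 0.53, with 1.51% of all genes higher and 2.83% lower). Without E2A knockout tumour 1 they stood at 0.25 and 0.21, and after quantile normalization at 0.25 and 0.02, none of these past the threshold. *Nme2* (0.45) and *Eif4a1* (0.79) were higher in Tal1-LMO2 tumours (1.44% of all genes higher, 5.23% lower) and *Nop16* (0.67) and *Nip7* (0.64) in ThPOK tumours (6.6% higher, 5.21% lower). In both backgrounds leaving out any 1 of the 3 tumours ended the calls, with values between 0.36 and 0.94. Under the 13 other settings *Nme2* in Tal1-LMO2 tumours fell as low as 0.1. It kept its call there in 12 of 13 and *Eif4a1* in 11, while *Nop16* and *Nip7* in ThPOK tumours kept theirs in 13. *Nme2* was lower in tumours labelled Nup98HoxD13 (-0.52, with 1.63% of all genes) and beta-catenin tumours (-0.40, with 7.42%), where *Wdr12* (0.87, 1.37%) and *Ddx21* (0.46, 11.4%) were the higher members. *Wdr12* and *Ddx21* there lost their calls without any 1 tumour, and *Nme2* kept its call in 1 of 3 such fits in each background. After quantile normalization *Nme2* stood at 0 in Nup98HoxD13 and -0.29 in beta-catenin tumours, neither called. The LMO1 tumours and those labelled olig1-LMO1, rag E2A knockout and Pokemon tumours had 0 members called by limma, where the shares of all genes higher and lower were 0.669% and 0.363%, 0.204% and 0.454%, 0.295% and 1.26%, and 0.352% and 0.601% in that order.

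**Figure D3:**
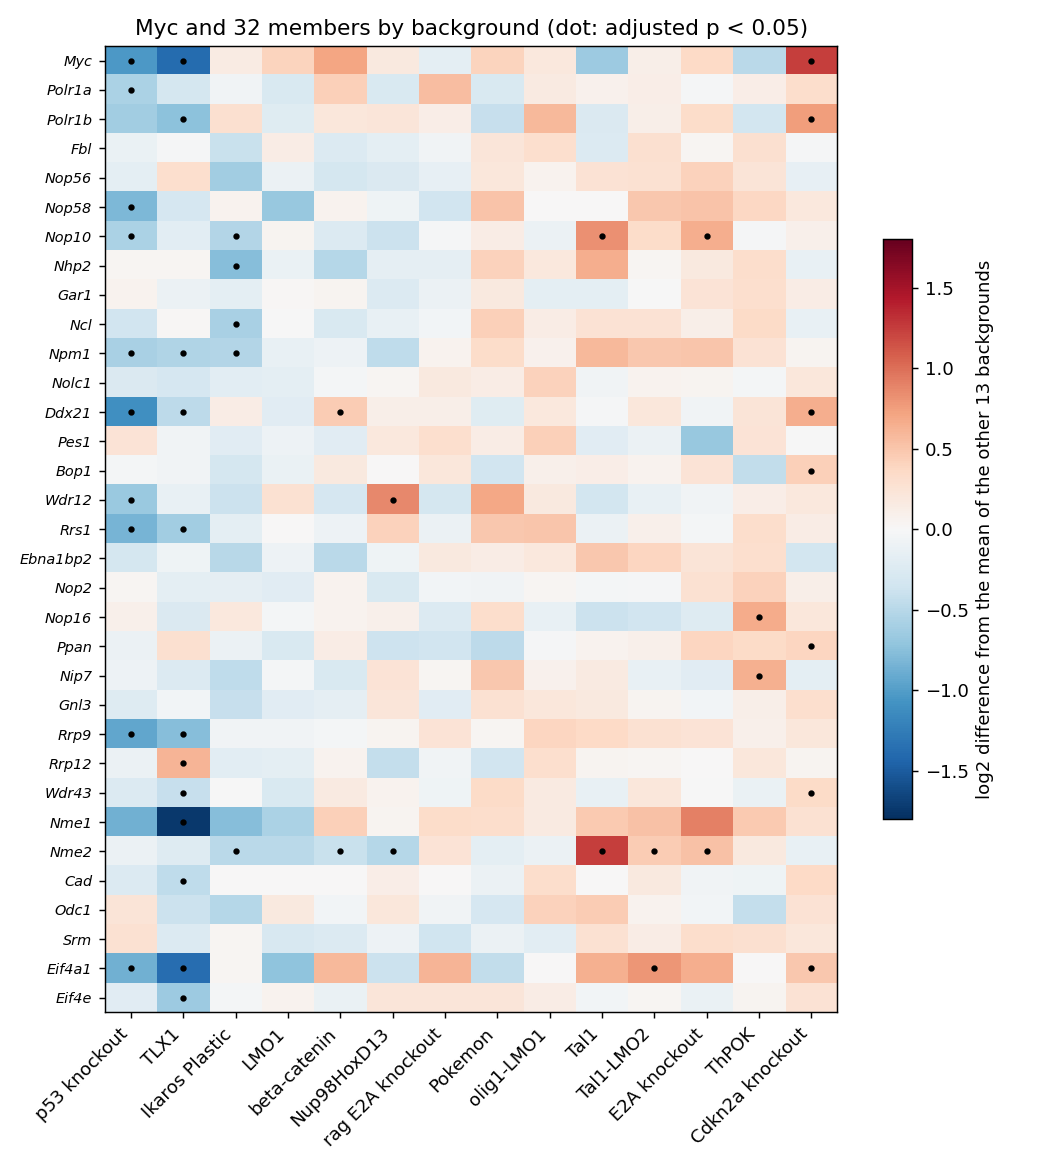
Log2 difference of each background from the mean of the other 13 (colour, from -1.8 in blue to 1.8 in red) for *Myc* and the 32 members; black dots mark adjusted p under 0.05. Dots are most frequent in the TLX1 (10 lower and 1 higher among members), p53 knockout (9 lower) and Cdkn2a knockout (6 higher) columns. Many of all tested genes were called there too: 12.5% lower and 19% higher in TLX1 tumours. The shares were 9.34% lower and 12.4% higher in p53 knockout, and 14.6% lower and 16.1% higher in Cdkn2a knockout tumours.

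The third comparison related each gene to the *Myc* signal of the same tumour. The member mean and log2 *Myc* gave r = 0.53 and rho = 0.42 over 47 tumours. Without the 2 tumours farthest from the *Myc* median, TLX1 tumours 5 and 2, the values were 0.43 and 0.34. They were 0.39 and 0.30 over the 41 TLX1 negative tumours, 0.54 and 0.40 within the 9 Cdkn2a knockout tumours, 0.56 and 0.37 within the 6 TLX1 tumours, and 0.46 and 0.42 with background means removed. The direction was thus the same in every one of these subsets, while in each of them rho was under r. *Myc* also tracked the 3'/5' ratio (r = -0.75, and -0.60 without TLX1 tumours 2, 5 and 6), whereas the member mean tracked it less (-0.40 and -0.21). The part of that ratio in the relation of members to *Myc* was not separated beyond the covariate fits below.

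**Figure D4:**
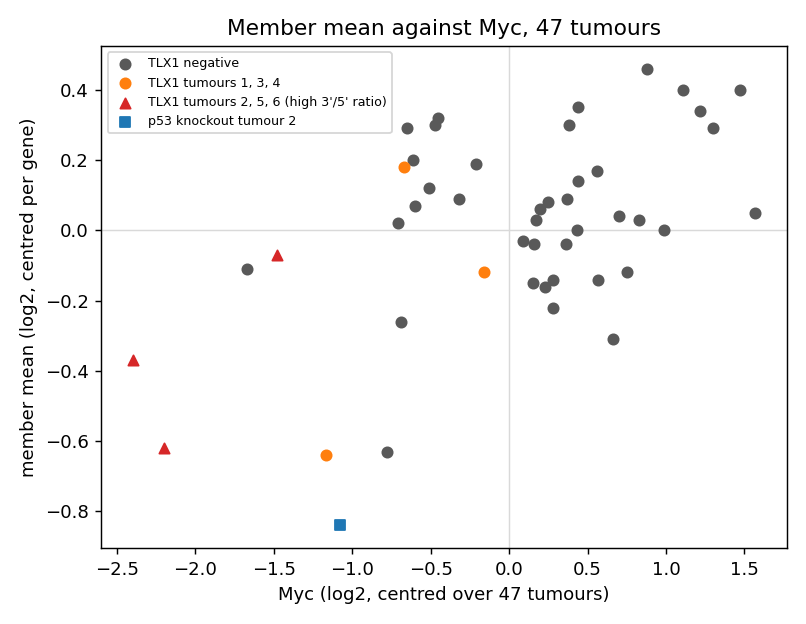
Member mean (vertical axis, log2, centred per gene) against *Myc* (horizontal axis, log2, centred) in 47 tumours. TLX1 tumours 2, 5 and 6 (triangles) lie toward the left, where p53 knockout tumour 1 (-1.67) falls between tumours 2 and 6, p53 knockout tumour 2 (square) at the bottom, and the upward trend (r = 0.53) is wide in the middle range.

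Across all tumours the slope on *Myc* was positive at an adjusted p under 0.05 for 15 members and negative for 0 (limma), where 15.9% of all tested genes were positive and 15.4% negative. Of the 32 slopes 26 were above 0, with a median of 0.16 log2 per log2 *Myc*, beside -0.02 over all genes. At an unadjusted p under 0.05 there were 18 members, all signs together, beside 3682 of 8813 genes. The steepest called slopes were those of *Nme1* (0.58 ± 0.12), *Polr1b* (0.54 ± 0.06, adjusted p = 2e-08), *Eif4a1* (0.53 ± 0.09), *Ddx21* (0.39 ± 0.05, adjusted p = 6.18e-07) and *Rrp9* (0.37 ± 0.09). *Rrs1* (0.30), *Cad* (0.29), *Eif4e* (0.28), *Wdr43* (0.26), *Polr1a* (0.25), *Nolc1* (0.21), and *Nop58*, *Bop1*, *Wdr12* and *Gnl3* (0.20 each) completed the 15. The values of *Nme1* (-0.15) and *Nolc1* (-0.19) had the opposite sign with the probe set of largest interquartile range. In the TLX1 negative tumours alone 7 were positive (9.11% of all genes), and with the 3'/5' ratio as covariate 5 were (4.86%).

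With 1 mean fitted per background, so that tumours of 1 background are compared with each other, 31 of 32 slopes were above 0 and only *Ncl* (-0.01) was below. The median was 0.23, beside 0.02 over all tested genes. At an adjusted p under 0.05, 2 members were positive and 0 negative (limma), where 0.908% of all genes were positive and 0.227% negative. At an unadjusted p under 0.05 there were 17 of the 32, beside 1519 of 8813 genes. Of the 26 further probe sets of members, 6 had the opposite sign for this slope. Another probe set of *Nolc1* (0.57, adjusted p = 0.0344) and another of *Eif4a1* (0.68, adjusted p = 0.0442) passed the threshold (limma). With the probe set of largest interquartile range, 29 of 32 slopes were above 0. In that fit 3 members were called positive, beside 1.74% of all genes. *Polr1b* had a slope of 0.55 ± 0.12 (adjusted p = 0.019). As examples chosen after the values were seen, its signals within Ikaros Plastic were 356, 159 and 390 where *Myc* was 1240, 599 and 1760, and within Nup98HoxD13 179, 260 and 413 where *Myc* was 639, 1400 and 1540. The 3 tumours of both backgrounds took the order of *Myc*. *Gnl3*, or nucleostemin, a nucleolar GTPase of large subunit assembly, had a slope of 0.47 ± 0.10 (adjusted p = 0.0157). Its signals were 933, 715 and 2210 in the p53 knockout tumours, where *Myc* was 316, 483 and 830, and 1310, 697 and 1130 in the Ikaros Plastic tumours. The tumour with the highest *Myc* had the highest *Gnl3* in the first of these backgrounds but not in the second, where the lowest tumour was the same for both.

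The sizes of these 2 slopes moved little while their calls did not hold. *Polr1b* had a slope of 0.66 and *Gnl3* 0.48 without TLX1 tumours 2, 5 and 6 (adjusted p = 0.154 for both), 0.65 and 0.47 with the ratio covariate (0.101 and 0.121), and 0.59 and 0.49 in the TLX1 negative tumours (0.192 and 0.196). Leaving out TLX1 tumour 2 alone gave 0 called members, and leaving out TLX1 tumour 1, p53 knockout tumour 3 or Ikaros Plastic tumour 2 gave 1. The median member slope ranged from 0.11 with the title number as a block to 0.31 with the ratio covariate.

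By role, the within-background slopes were highest for RNA polymerase I and lowest for the box H/ACA proteins. The median was 0.41 for the 2 polymerase subunits (*Polr1a* 0.28), 0.33 for the 2 initiation factors (*Eif4a1* 0.38, *Eif4e* 0.28), 0.26 for PeBoW (*Pes1* 0.30, *Bop1* 0.26, *Wdr12* 0.22) and 0.24 for the other large subunit factors (*Rrs1* 0.30, *Ppan* 0.28, *Nip7* 0.24, *Nop16* 0.23, *Nop2* 0.21, *Ebna1bp2* 0.12). It was 0.23 for small subunit processing (*Rrp9* 0.45, *Wdr43* 0.23, *Rrp12* 0.10), 0.21 for supply enzymes (*Nme1* 0.46, *Cad* 0.36, *Srm* 0.21, *Odc1* 0.13, *Nme2* 0.05), 0.14 for box C/D (*Nop56* 0.23, *Fbl* 0.14, *Nop58* 0.14), 0.13 for the scaffolds and helicase (*Nolc1* 0.33, *Ddx21* 0.18, *Npm1* 0.08) and 0.11 for box H/ACA (*Nhp2* 0.12, *Gar1* 0.11, *Nop10* 0.05). The difference between roles was not tested. *Ddx21* illustrates the contrast between the fits, with 0.39 across tumours and 0.18 within backgrounds, and *Gnl3* the reverse, with 0.20 and 0.47. Members whose window holds CACGTG had a median within-background slope of 0.29 (6 members), and those with a window but no match 0.23 (20 members).

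**Figure D5:**
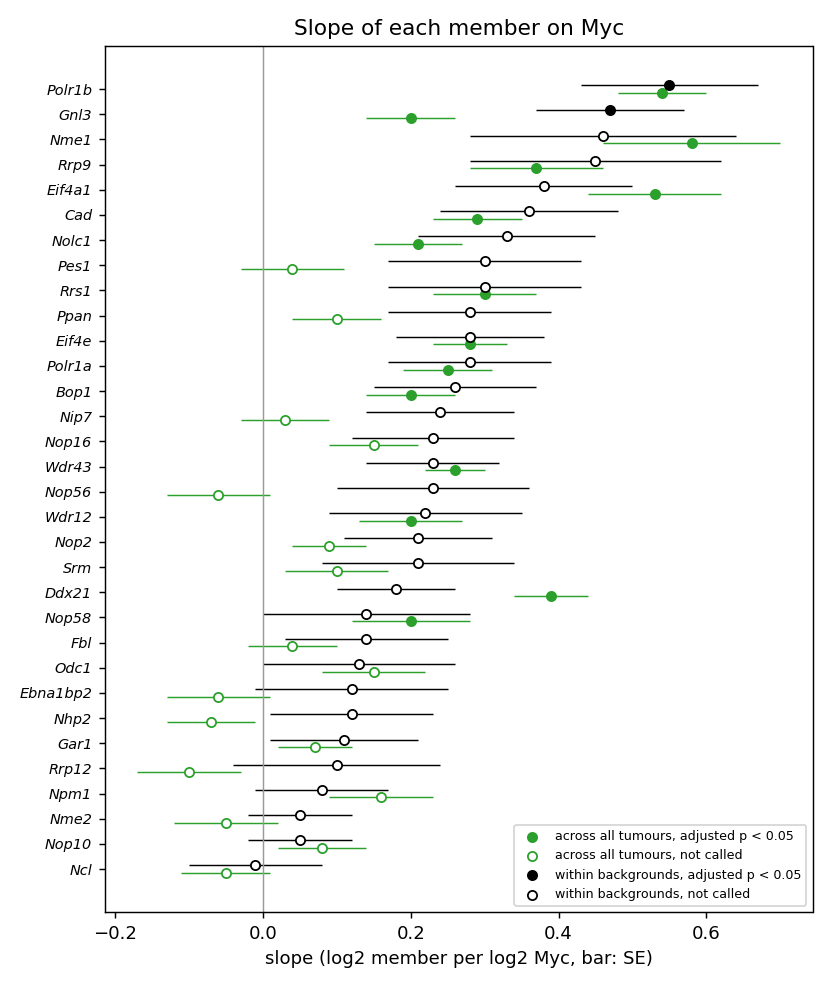
Slope of each member on *Myc* (horizontal axis, log2 per log2; bars are SE) across all tumours (green) and within backgrounds (black), with filled points for adjusted p under 0.05. Within backgrounds 31 of 32 slopes lie right of 0 and 2, *Polr1b* and *Gnl3*, are filled.

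Lists of further pathway genes, which share no gene with the set, were read the same way. In a list of 35 tested small subunit processome genes, 35 of 35 within-background slopes were above 0 with a median of 0.19, and 5 were called, among them *Nol11* (0.59 ± 0.11, adjusted p = 0.00823), *Utp4* (0.47) and *Tsr1* (0.44). *Nol11* was also lower in TLX1 tumours (-1.50 ± 0.21, adjusted p = 4.34e-06), at -0.94 without TLX1 tumours 2, 5 and 6 (adjusted p = 0.0422) but at -0.46 with the ratio covariate (adjusted p = 0.706), and at -1.46 with background as a random block (adjusted p = 0.105). Of 40 large subunit assembly factors 35 were above 0 and 2 were called, *Brix1* (0.44) and *Lsg1* (0.37). Of 16 nucleotide and polyamine genes 15 were above 0 and 1 was called, *Ppat* (0.50 ± 0.11), the committing enzyme of purine synthesis. Of 25 translation factors 15 were above 0 and 2 were called, *Eef1e1* (0.49) and *Eif2b1* (0.43). The RNA exosome (10 of 12 above 0), the RNA polymerase I and III machinery (19 of 22) and DNA replication genes (32 of 34) had 0 called by limma. Over all tested genes 0.908% were called, and the 10 calls of these lists were all lost without TLX1 tumours 2, 5 and 6, with the ratio covariate and in TLX1 negative tumours, where the 10 slopes lay between 0.21 and 0.59. Array weights left 1 of them called and the DNA replication covariate 2.

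Cytosolic ribosomal protein genes encode the proteins of the ribosome itself. Of 21 tested, 0 were called by limma for TLX1 status and 0 for either slope, 8 within-background slopes were above 0 and the median was -0.01. Of all genes 12.6% were higher and 8.86% lower for TLX1 status. The slope across tumours was positive for 15.9% and negative for 15.4%, and the slope within backgrounds for 0.908% and 0.227%. The F test among backgrounds called 20 of the 21, beside 68.1% of all genes. The mean of the 21 correlated with the member mean at r = 0.35 over 47 tumours and 0.11 with background means removed. Large subunit assembly factors gave 0.94 and 0.95, and the processome 0.92 and 0.93. DNA replication genes gave 0.69 and 0.71. The difference between these lists was not tested. Among markers of other cells, the mean of endothelial genes gave -0.52, B-cell genes -0.40, macrophage and neutrophil genes -0.38, stromal genes -0.36, T-cell genes 0.32 and erythroid genes -0.17. The rank correlations were -0.30, -0.53, -0.27, -0.24, 0.05 and -0.13.

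Among all tested genes outside the set, those most like the member mean over the 47 tumours were *Shmt1* (r = 0.84), a serine hydroxymethyltransferase that feeds one-carbon units, *Timm8a1* (0.82), *Exosc2* (0.81), an exosome subunit, *Cct6a* (0.80), a chaperonin subunit, and *Trip13* (0.80). Those least like it were *Trp53inp2* (-0.76), *Wdr13* (-0.75), *Trip11* (-0.74), *Glipr2* (-0.73) and *Acvr2a* (-0.73). All 10 kept the sign of their correlation when background means were removed, with 0.72 to 0.89 for the first 5 and -0.75 to -0.62 for the last 5.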

How the data were processed

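Total RNA was labelled as biotinylated cRNA, per the labels. MAS5, named in the submitters' processing notes, gave the intensity values as deposited, 1 linear signal per probe set and array. The sources used here name neither its version nor a scaling target, and the arrays share a trimmed mean of 250.06 to 250.13 (2% cut from each end). Probe sets of these arrays lie near the 3' end of transcripts, so degraded RNA can lower those further from it. Gene symbols came from the platform table: 20380 of 22690 probe sets carried 1 symbol and were used, 691 carried several, 1555 none and 64 were controls.

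The deposited intensities were raised by 15.9, their lower quartile, before log2 was taken, which understates changes of dim genes. A probe set had to exceed the array median in at least 2 arrays, and the one of highest mean log2 stood for its gene. Fits used limma 3.58.1 in R 4.3.3 (lmFit, eBayes with trend) on all 47 tumours, with Benjamini-Hochberg adjustment over all tested genes and a threshold of 0.05. "Higher", "lower" and "called" refer to it. The 5 tests were TLX1 status, each background against the other 13, any difference among backgrounds, and the slope on log2 *Myc* across tumours and within backgrounds. The scripts were checked on simulated data. Alternatives were pseudocounts of 1 and 72.2, quantile normalization, no filter or a filter of 6 arrays, the probe set of largest interquartile range, no trend, array weights, background as a random effect, a block on the title number, covariates, subsets of tumours and leaving out each tumour.

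Every member was named, with all TLX1 values for the member of lowest p in each role. Outside genes were the 5 most and 5 least correlated and up to 3 per list by p. Members and lists were chosen with earlier results of these data known. The title numbers did not pair tumours: over 230 pairs with the same number in different backgrounds the mean correlation of deviations was 0, and 27 exceeded 0.1. Promoters are RefSeq's on GRCm38.p6. The p53 gene is not analysed here.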

Additional observations from a re-analysis of the deposited data

Results flagged for a closer look

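For each of the 32 members, *Myc* and the member mean, the 6 TLX1 tumours and the 9 Cdkn2a knockout tumours were examined, 68 groups of values in all, and 5 held a tumour far from its group by Dixon's test, where chance gives about 1 in 20. In TLX1 tumour 4, *Fbl* stood at -1.03 on the centred log2 scale while the nearest other TLX1 tumour was at -0.05, and *Bop1* stood at -1.28 with the nearest at -0.07. In Cdkn2a knockout tumours, *Nop10* was lowest in tumour 6 (-0.17, nearest 0.07), *Ddx21* highest in tumour 3 (0.92, nearest 0.63) and *Nme1* lowest in tumour 8 (-1.15, nearest 0.21).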

How the results depend on the processing

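Shares of all genes called stand in parentheses. Higher members for TLX1 status numbered 0 with the replicate block (11.4%), without TLX1 tumours 2, 5 and 6 (1.12%, or 2.37% with p53 knockout tumour 2 also left out), without TLX1 tumours 1, 3 and 4 (7.58%), with the ratio covariate (0.0681%) and with the random block (0.0113%). Lower members numbered 0 without tumours 2, 5 and 6 (0.397%), with the covariate (0%) and with the random block (0.0113%), and 1 without those 3 and p53 knockout tumour 2 (1.2%, chosen after seeing the data, as was leaving out tumours 1, 3 and 4). Within backgrounds, positive slopes numbered 0 with array weights (0.102%), the replicate block (0%), without tumours 2, 5 and 6 (0.0113%, or 0.0567% also without p53 knockout tumour 2), with the covariate (0%) and in TLX1 negative tumours (0%), and 1 with the DNA replication mean as a covariate (0.227%). Across tumours they numbered 5 with the ratio covariate (4.86%), 7 in TLX1 negative tumours (9.11%) and 7 without the 4 tumours (10.2%), and 4 were negative with the DNA replication covariate (15.8%). The F test called 10 with the ratio covariate (59.5%). Of member and background pairs, 17 were higher and 26 lower, but 33 higher with array weights (9.06%) and 16 lower with the covariate (4.24%). *Eif4a1* in Cdkn2a knockout tumours lost its call with the replicate block (0.46, adjusted p = 0.0975). With that block 0 of the 10 calls within backgrounds in the pathway lists were left. The title numbers do not pair tumours. The cause of these moves was not tested.

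Leaving out 1 tumour at a time gave 1 to 1 higher and 4 to 10 lower members for TLX1 status (4 without TLX1 tumour 2 and 5 without tumour 4 or 5), 13 to 17 positive and 0 to 0 negative slopes across tumours, 0 to 3 and 0 to 0 within backgrounds, 15 to 18 by the F test, and 14 to 21 higher and 23 to 31 lower pairs. Signs turned with the ratio covariate for TLX1 status of *Ddx21* (0.12), *Wdr43* (0, adjusted p = 0.997) and *Cad* (0.14), and for *Cad* in TLX1 tumours against other backgrounds (0.15). With the probe set of largest interquartile range they turned for TLX1 status of *Nme1* (0.32), for slopes across tumours of *Nop56* (0.26), *Nolc1* (-0.19) and *Nme1* (-0.15), and in the background comparison for TLX1 *Cad* (0.01), TLX1 *Nme1* (0.26) and Ikaros Plastic *Ncl* (0.07). Quantile normalization turned Ikaros Plastic *Npm1* (0.04). Of 6767 single-gene values under the alternatives, called or not, 67 changed sign without a call in either fit. The slope on *Myc* within TLX1 tumours differed from that in the others for 0 members and 0 genes (limma interaction). Signals near the floor limit *Rrp12*, *Mycn* and *Mycl*. The lowest signals of *Rrp9* and *Polr1b*, both called for TLX1 status, fell under the array median too. *Rrp9* was at 57.7 in TLX1 tumour 2 (array median 69) and 28.9 in p53 knockout tumour 2 (88). *Polr1b* was at 67.4 in TLX1 tumour 4 (69.7).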
